A study of Mus musculus with 2 samples.

Results

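The transcripts of the aryl hydrocarbon receptor and of its direct partners and targets were followed through the cells of the mouse uterus. The members were 7 of the 32285 genes of the feature list, taken by symbol: the receptor itself (Ahr), its dimer partner (Arnt), the monooxygenases Cyp1a1 and Cyp1b1, the quinone reductase Nqo1, and the feedback inhibitors Ahrr and Tiparp. They were selected on their place in the pathway and with their UMI levels per cell class and library in these same data already known, so the levels and differences below are descriptions and carry no test. Single cells were measured in 2 libraries of whole uterus from C57BL/6J female mice, each a pool of 3 mice aged 6 months. The titles call the first Prickle1 f/f (control) and the second Prickle1 f/f MiC (cKO). By convention f/f stands for a floxed allele on both chromosomes, which both groups carry. The labels do not say what MiC is, in which cells it acts, or which animal each cell came from, and both libraries have wild-type in the genotype field.

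The receptor is a ligand-activated transcription factor. It waits in the cytoplasm in a complex with chaperones, binds planar aromatic compounds such as dioxins, combustion products and tryptophan derivatives, and then moves to the nucleus, where it pairs with ARNT and binds DNA at a short core motif, GCGTG. Cyp1a1 is its classical target and is readily induced in endothelium and in barrier epithelia; AHRR competes for ARNT, TIPARP marks the receptor for removal, and CYP1 enzymes break ligands down, so several targets close a feedback loop. CYP1A1 and CYP1B1 also hydroxylate oestrogens, which links the pathway to the uterus.

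The 3 promoters printed here were chosen because they span the range of core motifs in the set: 1 match upstream of the most inducible target, 3 matches in the repressor and 0 in the reductase. Each runs 5′ to 3′ from 250 bases before to 50 bases after the RefSeq gene start in GRCm38.p6 (the mm10 build), on the strand of the gene, with GCGTG (or CACGC, the same motif on the other strand) in capitals. RefSeq sequences were found for 6 of the 7 members. The Cyp1a1 promoter is chr9:57697363-57697662, plus strand, with the motif starting 54 bases before the gene start. The Ahrr promoter is chr13:74292282-74292581, minus strand, with motifs starting 107, 82 and 27 bases before it. The Nqo1 promoter is chr8:107403156-107403455, minus strand.
Cyp1a1: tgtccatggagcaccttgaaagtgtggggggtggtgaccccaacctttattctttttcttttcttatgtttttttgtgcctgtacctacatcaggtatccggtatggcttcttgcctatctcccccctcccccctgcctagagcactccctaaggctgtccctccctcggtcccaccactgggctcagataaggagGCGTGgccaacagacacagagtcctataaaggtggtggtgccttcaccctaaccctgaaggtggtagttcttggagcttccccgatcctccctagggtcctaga
Ahrr: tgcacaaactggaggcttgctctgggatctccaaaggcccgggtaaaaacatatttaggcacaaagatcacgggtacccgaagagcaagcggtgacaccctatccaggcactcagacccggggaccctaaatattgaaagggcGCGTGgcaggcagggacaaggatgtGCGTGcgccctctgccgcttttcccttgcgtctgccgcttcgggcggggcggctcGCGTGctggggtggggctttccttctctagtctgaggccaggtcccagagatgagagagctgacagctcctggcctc
Nqo1: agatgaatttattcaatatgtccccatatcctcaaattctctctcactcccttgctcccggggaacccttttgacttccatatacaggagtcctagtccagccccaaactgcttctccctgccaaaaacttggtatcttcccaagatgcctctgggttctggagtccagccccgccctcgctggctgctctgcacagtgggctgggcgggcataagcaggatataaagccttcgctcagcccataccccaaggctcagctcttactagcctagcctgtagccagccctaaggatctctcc

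The other members with a promoter sequence, Cyp1b1 (chr17:79715012-79715311, minus strand), Arnt (chr3:95434140-95434439, plus strand) and Tiparp (chr3:65528197-65528496, plus strand), held 1 match each. These matches describe letters only: of 32851 RefSeq promoters of the same length, 10639 (32.4%) hold GCGTG at least once on either strand and 3643 (11.1%) hold it 2 or more times. The genes lie at chr9:57687928-57703824 (Cyp1a1), chr17:79701537-79715061 (Cyp1b1), chr12:35497974-35535038 (Ahr), chr3:95434388-95497240 (Arnt), chr13:74211118-74292331 (Ahrr), chr3:65528410-65555518 (Tiparp) and chr8:107388225-107403206 (Nqo1) in GENCODE vM21. Annotated neighbours overlap Ahr (Gm48236, opposite strand), Tiparp (4931440P22Rik, opposite strand) and Arnt (Gm42672, same strand), and how the counting split reads between them is not given in the sources used here.

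The library labelled control held 3490 cells with a median of 4953 unique molecular identifiers (UMIs, each standing for 1 captured transcript), and the library labelled cKO held 3586 cells with a median of 4903. Prickle1, the targeted gene, was not lower where the label predicts it: 96 UMIs or 2.56 counts per 1000000 UMIs (CPM) in the library labelled control against 265 UMIs or 9.03 CPM in the other, and in smooth muscle-like cells 14 UMIs (14.8 CPM) against 51 UMIs (24.4 CPM). With 1 library per group, every interval below (exact, 95%) covers counting error only and says nothing of the spread between mice. Clusters were named from marker genes, and all names mean "like". The epithelium-like class had 1312 and 109 cells, and its clusters 3 and 8 (204 and 223 cells) came from the library labelled control alone, whereas smooth muscle-like cells numbered 313 and 680, fibroblast-like cells 864 and 1368, and T or NK cell-like cells 346 and 749. Fewer than 100 cells in a library kept the endothelium-like, mesothelium-like, mast cell-like, B or plasma cell-like and granulocyte-like classes out of the comparison of libraries, and for them levels are given side by side.

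Cyp1a1 was concentrated in a few endothelial cells. In the library labelled control, 0.888% of the cells formed the endothelium-like cluster and carried 81.1% of the Cyp1a1 UMIs (770 of 950). In the library labelled cKO, 2.82% of the cells carried 69.0% of them (1809 of 2620). Levels were 1681 CPM (1564 to 1804) and 1348 CPM (1287 to 1412). The same cluster was highest in both libraries, and the share of its cells with a Cyp1a1 UMI was close to equal at 15 of 31 (48.4%, 30.2 to 66.9) and 48 of 101 (47.5%, 37.5 to 57.7). Few cells held much of these UMIs: the highest cell of each library carried 233 and 321 UMIs, and without it the levels were 1252 and 1155 CPM. Cyp1a1 had been kept out of the genes used for clustering and still ranked among the 10 leading genes of this cluster.

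The cluster took its name from lymphatic markers, but it also held cells with few UMIs of those markers, and Cyp1a1 was higher in these cells. In a split made after the values had been seen, cells with fewer than 2 UMIs of the lymphatic marker list numbered 9 and 21. Their median depths were 3272 and 5121 UMIs, against 8952.5 and 5784.5 in the other cells of the cluster. A shallow cell falls below 2 marker UMIs more easily, so the split sorts in part by depth. Prox1, the lymphatic regulator, is in the list, so its 0 and 2 UMIs below the cut follow from the split. Flt1, a receptor of blood endothelium, was at 644 and 894 CPM in the cells below the cut. Cyp1a1 stood at 5580 CPM (4978 to 6235) and 4699 CPM (4401 to 5011) there, in 5 of 9 and 16 of 21 cells. On the control side 1 cell of 29370 UMIs carried 233 of the 312 Cyp1a1 UMIs and 31 of the 36 Flt1 UMIs, and Flt1 was seen in 3 of the 9 cells; without the highest cell of each library Cyp1a1 was at 2976 and 4208 CPM. The 22 and 80 cells with 2 or more lymphatic marker UMIs had Cyp1a1 at 1139 CPM (1037 to 1248) and 772 CPM (722 to 825). Their Prox1, at 1544 and 1786 CPM, again follows in part from the split. In both libraries the Cyp1a1 intervals of the lymphatic-marked and the other cells did not overlap.

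**Figure D1:**
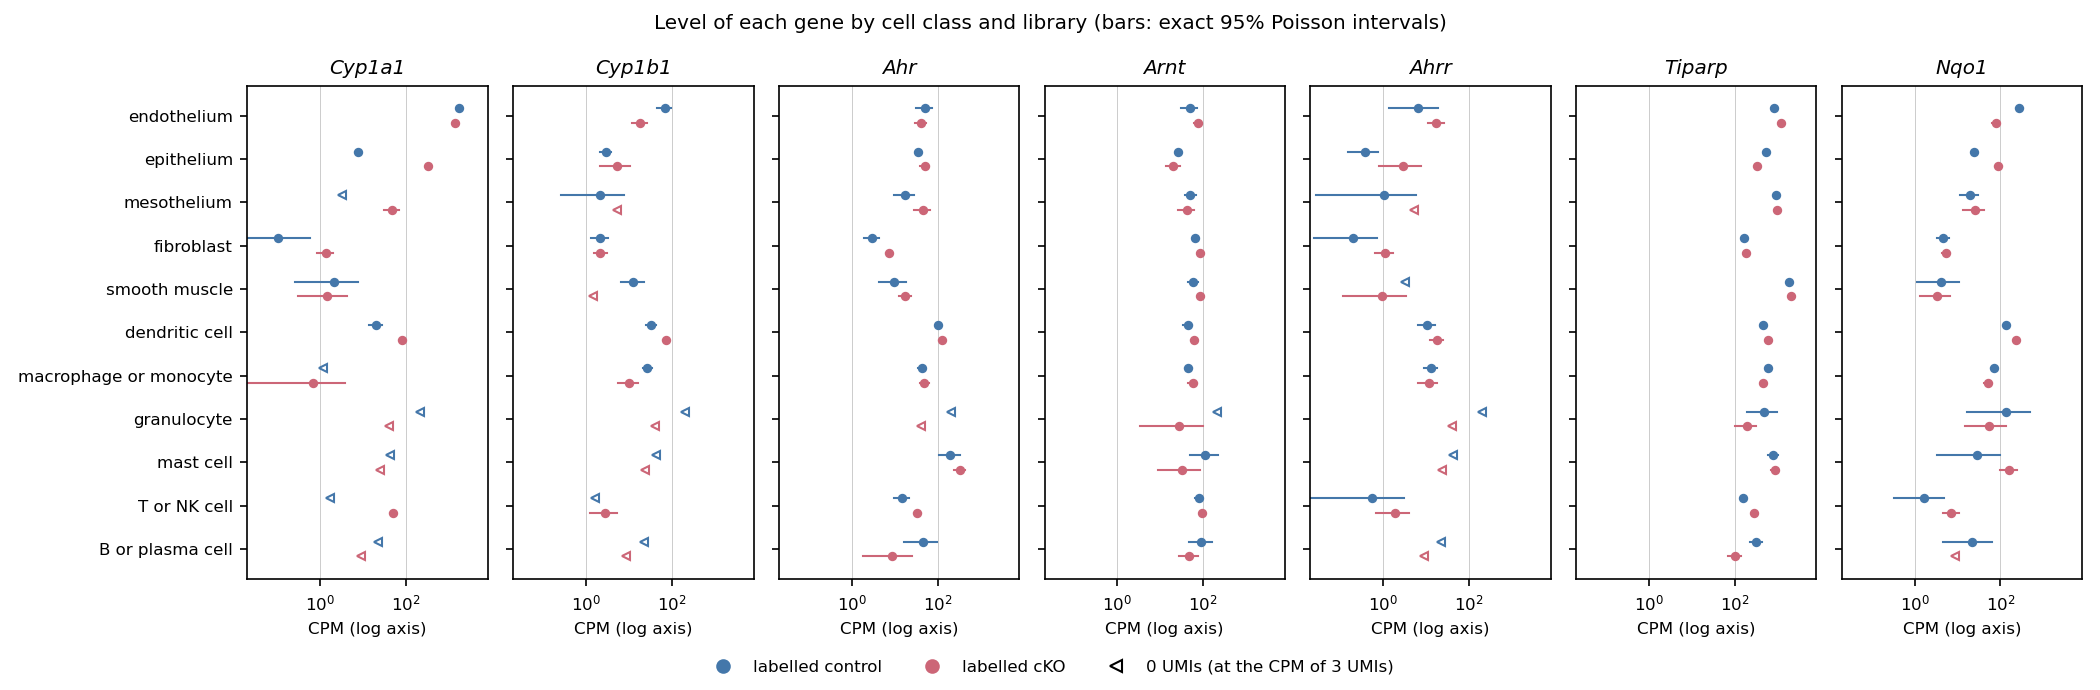
Level of each of the 7 members (CPM, log axis) in 11 cell classes for the library labelled control and the library labelled cKO; bars are exact 95% Poisson intervals for counting error, and open triangles mark 0 UMIs at the level that 3 UMIs would give. Cyp1a1 peaks in the endothelium-like class at 1681 and 1348 CPM, whereas Arnt stays within a narrow band across the compared classes.

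Epithelium-like cells showed the highest log2 ratio of a member between the libraries. Cyp1a1 was carried by 26 of 1312 cells (1.98%, 1.30 to 2.89) with 142 UMIs, or 7.51 CPM (6.33 to 8.86), in the library labelled control. On the cKO side it was carried by 14 of 109 cells (12.8%, 7.20 to 20.6) with 431 UMIs, or 320 CPM (290 to 352). The levels differed 42.6-fold (35.1 to 51.8 by counting error), a log2 ratio of 4.70 with 5 CPM added to each level (4.50 to 4.89). In the same class 12.1% of the 7955 genes that passed the filter of a mean of 10 CPM were at least 2-fold higher, so a difference past 2-fold was common among epithelial genes, while the median gene stood at a log2 ratio of 0.22.

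The epithelial Cyp1a1 came from few cells, and mostly from 1 cluster. In the library labelled cKO the 5 highest cells held 88.4% of the UMIs and the highest alone 136; in the library labelled control the 5 highest held 66.2%. In cluster 1, 11 of 144 cells carried 61 UMIs (25.04 CPM, median 2 UMIs in a positive cell) in the library labelled control, and 9 of 20 cells carried 421 UMIs (467 CPM, median 42 UMIs) in the library labelled cKO. The difference within that cluster was a log2 ratio of 3.97 (3.63 to 4.32), in cells that were also deeper in the library labelled cKO (median 20210.5 UMIs against 5086). Cluster 0 had 6 and 10 UMIs (2.79 and 36.1 CPM). Cluster 9 had 62 UMIs (20.2 CPM) in 231 cells, 32 of them in 1 cell, and 0 UMIs in 26 cells, where 3 UMIs would be 17.8 CPM; counting error covers that difference. With each cell thinned to 1000 UMIs the shares of epithelium-like cells with a Cyp1a1 UMI were 0.305% and 5.50%.

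Markers of blood endothelium summed to like levels in cluster 1 of both libraries, but the make-up of the sums differed. Flt1 alone held 73 of the 93 list UMIs in the library labelled control and 10 of 34 in the other. The sums therefore do not show that the other markers were at like levels. The cells of cluster 1 carried the blood endothelial list (8 genes, 6 with a UMI in each library, Cdh5 at 3 UMIs in each) at a summed 38.2 and 37.7 CPM, against 2811 and 2725 CPM in the endothelium-like cluster, and the epithelial list at 16525 and 19656 CPM. Of the epithelium-like cells with 5 or more Cyp1a1 UMIs, 9 and 7 in number, all had at least 3 UMIs of Epcam and Krt8 added together, 6 of 9 and 2 of 7 had at least 3 UMIs of the blood endothelial list, and 1 in each library had a Cdh5 UMI. Epcam and Krt8 are among the markers that named these clusters, and these cells were deep, with medians of 39438 and 84439 UMIs. Such counts follow in part from the naming and the depth. Where the Cyp1a1 of these cells came from was not tested. Free RNA differed between the libraries as well: in droplets of at most 100 UMIs Cyp1a1 was at 14.7 CPM (10.4 to 20.2) and 116 CPM (101 to 132). Cyp1a1 in epithelium-like cells lay above the empty droplets of the same library on the cKO side (320 CPM) and below them on the control side (7.51 CPM). The droplet level is not the level that free RNA brings to a cell. A 10% share of free RNA would bring 1.47 CPM on the control side and 11.6 CPM on the cKO side. The share that these cells held was not tested. Among other classes, macrophage or monocyte-like cells had a Cyp1a1 UMI in 0 of 300 on the control side (upper bound 1.22%) and in 1 of 212 (0.472%) on the cKO side. Their median depths were 7796.5 and 5653.5 UMIs, against 4371.5 and 4075 in epithelium-like cells. T or NK cell-like cells had 0 of 346 and 3 of 749, and dendritic cell-like cells 5 of 171 and 11 of 224. How well any of these classes measures the free RNA in epithelium-like cells was not tested.

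**Figure D2:**
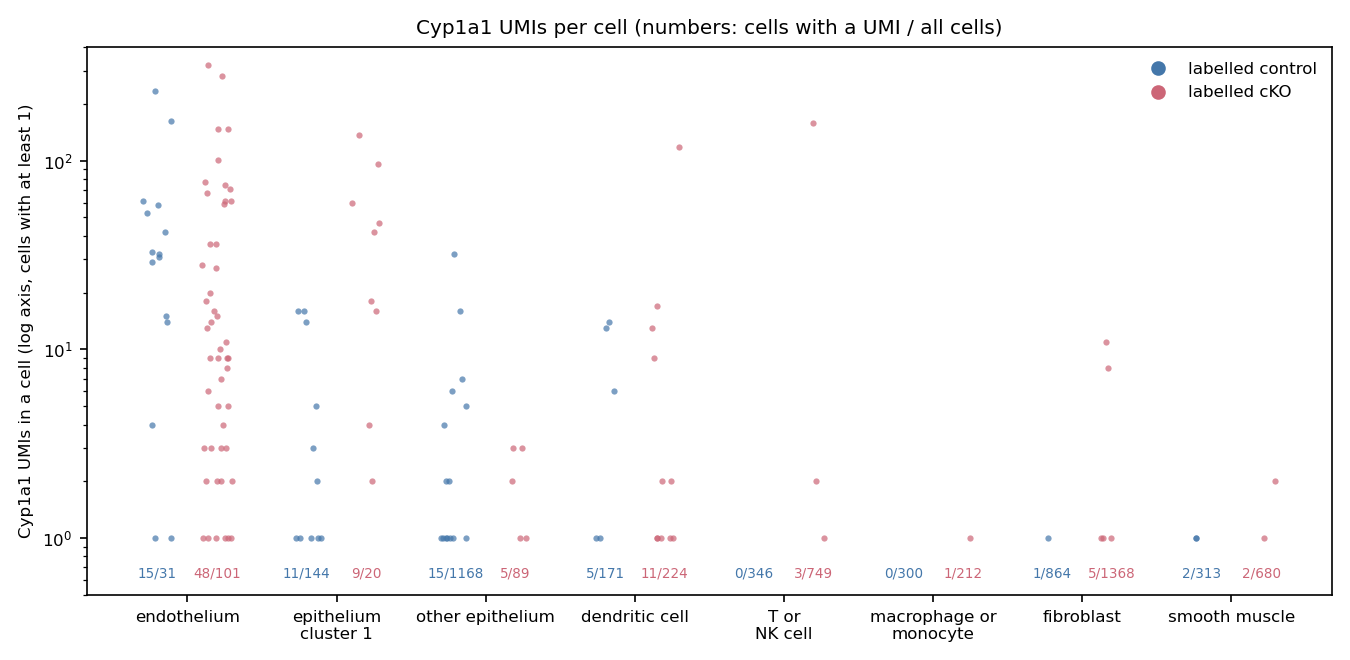
Cyp1a1 UMIs in each cell with at least 1 (log axis), by class and library, with the number of positive cells over all cells. Cluster 1 of the epithelium-like class has 11 of 144 positive cells with a median of 2 UMIs in the library labelled control and 9 of 20 with a median of 42 UMIs in the library labelled cKO.

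Outside endothelium and epithelium, single barcodes held much of the Cyp1a1. T or NK cell-like cells had 162 UMIs (49.9 CPM) in the library labelled cKO and 0 in the other, at least 30.4-fold higher against the 1.64 CPM that 3 UMIs would give. Of those 162 UMIs, 159 lay in 1 cell that carried 26 blood endothelial, 4 lymphatic and 0 T or NK marker UMIs, and without it 3 UMIs (0.931 CPM) were left. The blood endothelial list summed to 158 CPM on the control side (4 of 8 genes with a UMI; Cdh5, Plvap, Cldn5 and Egfl7 at 0) and to 141 CPM in the other (8 of 8). Dendritic cell-like cells had 35 UMIs in 5 of 171 cells (19.4 CPM, 13.5 to 27.0) and 166 UMIs in 11 of 224 cells (78.1 CPM, 66.7 to 90.9), a log2 ratio of 1.77 (1.32 to 2.22) that became -0.30 with the highest Scrublet scores removed. Of the latter, 118 UMIs lay in 1 cell with 47 blood endothelial and 22 dendritic marker UMIs, and without the highest cell of each library the levels were 11.8 and 23.0 CPM. The blood endothelial list summed to 43.3 CPM (7 of 8, Cldn5 at 0) and 68.2 CPM (6 of 8, Cldn5 and Egfl7 at 0) there. Beyond those single cells, the part of endothelial RNA in these values was not tested. Fibroblast-like cells had 1 and 22 Cyp1a1 UMIs and smooth muscle-like cells 2 and 3, and no UMI was seen in mast cell-like, B or plasma cell-like or granulocyte-like cells of either library.

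Cyp1b1, which oxidises the same kinds of substrate and is also expressed without an inducer in many stromal tissues, followed another pattern, with its highest levels in dendritic cell-like and endothelium-like cells. Dendritic cell-like cells carried 60 UMIs in 9 cells (33.3 CPM, 25.4 to 42.9) and 159 UMIs in 28 cells (74.8 CPM, 63.6 to 87.4), a log2 ratio of 1.06 (0.67 to 1.46). The class joins cluster 18 (122 and 222 cells) with cluster 21 (49 and 2 cells), and within cluster 18 Cyp1b1 was at 45.5 and 75.4 CPM, a log2 ratio of 0.67 (0.27 to 1.08) that is no longer past 2-fold. Macrophage or monocyte-like cells went the other way, from 70 UMIs in 12 cells (26.6 CPM, 20.7 to 33.6) to 15 UMIs in 4 cells (10.1 CPM, 5.64 to 16.6), a log2 ratio of -1.07 (-1.65 to -0.46). Without the highest cell of each library the levels were 24.5 and 50.4 CPM in the dendritic class and 14.1 and 3.40 CPM in the macrophage class, in the same directions. Finer clustering split the dendritic cell-like cells. A sub-cluster of 70 and 89 cells, which had too few markers of any class for a name of its own, had Cyp1b1 at 45.5 and 131 CPM. A dendritic cell-like one of 67 and 136 cells had it at 37.3 and 36.9 CPM, and another held 35 and 0 cells.

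Stromal, muscle and epithelial cells held little Cyp1b1 in these libraries. Fibroblast-like cells were at 2.14 and 2.17 CPM and epithelium-like cells at 2.86 and 5.20 CPM. All 12 UMIs of smooth muscle-like cells in the library labelled control came from 1 cell, and the other library had 0. In the endothelium-like cluster Cyp1b1 stood at 67.7 CPM (46.0 to 96.0, 31 UMIs in 5 cells) and 17.9 CPM (11.5 to 26.6, 24 UMIs in 11 cells), lower in the library labelled cKO beyond counting error. On the control side 15 of the 31 UMIs lay in 1 cell, and without the highest cell of each library the levels were 44.3 and 13.6 CPM.

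Ahr, the receptor, was most abundant in mast cell-like cells (195 and 330 CPM, intervals 107 to 327 and 237 to 447) and next in dendritic cell-like cells (104 and 124 CPM, 89.97 to 120 and 110 to 140). The intervals of those neighbours overlapped in the library labelled control and not in the other. Endothelium-like (50.2 and 40.3 CPM), macrophage or monocyte-like (42.9 and 49.0 CPM) and epithelium-like cells (34.7 and 51.2 CPM) followed with overlapping intervals. Smooth muscle-like (9.54 and 17.7 CPM) and fibroblast-like cells (2.95 and 7.46 CPM) were lowest among the classes compared. Mesothelium-like cells stood at 17.1 and 44.6 CPM and B or plasma cell-like cells at 44.9 and 8.73 CPM (6 and 3 UMIs). The endothelial cells with the most Cyp1a1 thus did not have the most receptor transcript.

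Between the libraries, the log2 ratio of Ahr (5 CPM added) stayed below 1 in each of the 5 classes where it passed the filter. T or NK cell-like cells held 27 UMIs (14.8 CPM, 9.74 to 21.5) and 110 UMIs (33.9 CPM, 27.8 to 40.8), a ratio of the levels of 2.29 (1.49 to 3.64) and a log2 ratio of 0.98 (0.48 to 1.46). That difference lay in cluster 10 (28.7 and 61.8 CPM) and cluster 19 (6.34 and 24.4 CPM), whereas cluster 12, the most numerous, was at 14.1 and 15.5 CPM. The log2 ratio was 0.50 (0.16 to 0.83) in epithelium-like cells. Within counting error were the ratios of smooth muscle-like (0.64, -0.14 to 1.38), dendritic cell-like (0.24, -0.02 to 0.51, and -0.06 within cluster 18) and macrophage or monocyte-like cells (0.17, -0.23 to 0.57). The median gene of those classes lay between 0.08 and 0.22.

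Arnt, the dimer partner that the receptor shares with the hypoxia-inducible factors, was the most even of the members. Its levels ran from 20.04 CPM (epithelium-like, library labelled cKO) to 94.9 CPM (T or NK cell-like, same library) over the 6 classes compared. Log2 ratios above 0 beyond counting error were 0.52 (0.10 to 0.94) in smooth muscle-like (58.3 and 85.5 CPM), 0.44 (0.06 to 0.83) in dendritic cell-like (43.3 and 60.7 CPM) and 0.30 (0.18 to 0.43) in fibroblast-like cells (65.6 and 82.2 CPM). Those of macrophage or monocyte-like (0.29; 45.2 and 56.4 CPM), T or NK cell-like (0.27; 77.7 and 94.9 CPM) and epithelium-like cells (-0.29; 25.6 and 20.04 CPM) were within it.

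Ahrr, the repressor with 3 core motifs in its promoter, was scarce, with its highest levels in myeloid and endothelium-like cells. Macrophage or monocyte-like cells held 34 and 17 UMIs (12.9 CPM, 8.94 to 18.04, and 11.4 CPM, 6.65 to 18.3), and dendritic cell-like cells 19 and 38 UMIs (10.5 CPM, 6.35 to 16.5, and 17.9 CPM, 12.6 to 24.5). Neither difference exceeded counting error, with log2 ratios of -0.13 and 0.56 (-0.05 to 1.15). The endothelium-like cluster had 3 and 23 UMIs (6.55 and 17.1 CPM), 12 of the latter in 1 cell. Its cells with fewer than 2 lymphatic marker UMIs stood at 53.7 CPM (3 UMIs in 1 cell) and 40.6 CPM (8 UMIs in 4 cells). Epithelium-like cells, where Cyp1a1 differed most, had 7 and 4 Ahrr UMIs (0.370 and 2.97 CPM), too few to pass the filter.

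Tiparp, the ADP-ribosyltransferase that limits receptor activity, was widespread and highest in smooth muscle-like cells at 1851 CPM (1765 to 1940) and 2061 CPM (2000 to 2123). Within that class cluster 22 carried it at 3878 and 3399 CPM and cluster 11 at 303 and 474 CPM. Endothelium-like (810 and 1173 CPM), mesothelium-like (924 and 948 CPM) and mast cell-like cells (794 and 860 CPM) came next. Tiparp is also an early response gene, and the labels give a 5 hour digestion for both libraries.

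Tiparp did not follow Cyp1a1 in the epithelium. It was at 538 CPM (527 to 548) and 332 CPM (302 to 364) in epithelium-like cells, a log2 ratio of -0.69 (-0.83 to -0.55), and lay below 0 in clusters 0, 1 and 9 (-0.44, -0.26 and -0.92). It was also lower in macrophage or monocyte-like cells (612 and 449 CPM, log2 ratio -0.44). T or NK cell-like cells were at 155 CPM (137 to 174) and 290 CPM (271 to 309), a log2 ratio of 0.88 (0.69 to 1.07) that was 1.06, 1.15 and 0.31 in clusters 10, 12 and 19. Dendritic cell-like cells were higher by 0.38, fibroblast-like by 0.18 and smooth muscle-like by 0.15.

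Nqo1, a quinone reductase that both the receptor and NRF2 induce, was highest in endothelium-like cells of the library labelled control and in dendritic cell-like cells of the other. Dendritic cell-like cells held 244 UMIs in 61 cells (135 CPM, 119 to 154) and 487 UMIs in 97 cells (229 CPM, 209 to 250), a log2 ratio of 0.74, or 0.47 (0.24 to 0.70) within cluster 18. As with Cyp1b1, the sub-cluster of 70 and 89 cells was the higher one (240 and 464 CPM), and that of 67 and 136 cells stood at 73.4 and 75.3 CPM. The endothelium-like cluster went the other way, from 279 CPM (233 to 332, 16 of 31 cells) to 78.3 CPM (64.0 to 94.8, 26 of 101 cells), and the lymphatic-marked cells within it from 311 to 89.1 CPM. On the control side 50 of the 128 UMIs of the cluster lay in 1 cell. Without the highest cell of each library the cluster was at 216 and 65.0 CPM.

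In epithelium-like cells Nqo1 was at 24.9 CPM (22.7 to 27.3) and 90.6 CPM (75.2 to 108), a log2 ratio of 1.68 (1.40 to 1.94). Of the 122 UMIs in the library labelled cKO, 66 came from 1 cell of 260185 UMIs. Within clusters the levels were 147 and 133 CPM in cluster 1 (log2 ratio -0.14, -0.44 to 0.15), 30.9 and 5.95 CPM in cluster 9 (95 and 1 UMIs) and 2.78 and 3.61 CPM in cluster 0 (6 and 1 UMIs, below the filter). With every cell thinned to 1000 UMIs the log2 ratio was -1.90. Macrophage or monocyte-like cells were at 69.5 and 51.7 CPM (log2 ratio -0.39).

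Over the 6 classes compared, 27 of the 42 pairs of a member and a class passed the filter, and 6 of those were past 2-fold, 5 of them higher under the cKO label and 1 lower. In epithelium-like cells 2 of 5 members that passed were past 2-fold (Cyp1a1 and Nqo1, both higher), where 12.1% of all genes were at least 2-fold higher, 7.33% lower and 19.4% either. In dendritic cell-like cells they were 2 of 7 (Cyp1a1 and Cyp1b1, both higher), where 3.18% of genes were higher, 3.11% lower and 6.28% either. T or NK cell-like cells had 1 of 4 (Cyp1a1, higher) beside 0.805% higher, 1.96% lower and 2.76% either. Macrophage or monocyte-like cells had 1 of 6 (Cyp1b1, lower) beside 1.16% higher, 2.38% lower and 3.54% either. Fibroblast-like cells had 0 of 2 (1.43% higher, 0.651% lower, 2.08% either) and smooth muscle-like cells 0 of 3 (3.22% higher, 1.68% lower, 4.89% either). The members were chosen with such values in view, and a gene high in 1 library alone passes the filter because of it, so nothing is read from these shares. In all cells together Cyp1a1 alone of the 5 members that passed was past 2-fold (25.3 and 89.2 CPM, log2 ratio 1.64), where 5.38% of genes were higher, 7.4% lower and 12.8% either.

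**Figure D3:**
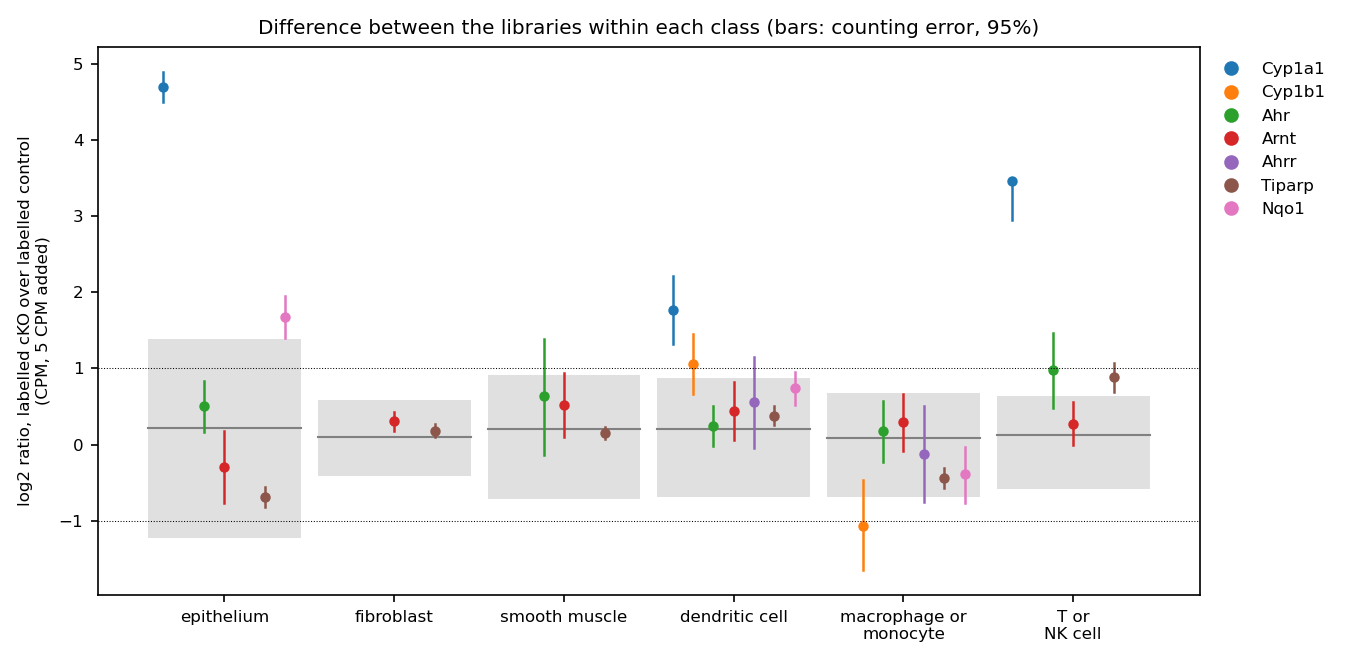
Log2 ratios of the members (cKO label over control label, 5 CPM added), drawn where the gene passed the filter, in the 6 classes compared; bars are 95% intervals for counting error, grey boxes the 5th to 95th percentiles of all genes with the median as a line, and dotted lines 2-fold. Cyp1a1 in the epithelium-like class stands at 4.70, and Tiparp in the same class at -0.69.

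Across the 24 clusters with at least 50 cells, both libraries pooled, the genes most like each member were ranked by Pearson's correlation of log2 levels; the clusters share libraries and differ in depth, so these values are descriptions. Cyp1a1 lay closest to endothelial genes: Rasip1 (0.81), Clca3a1 (0.78), Ptprb, Angpt2 and Plvap (0.76 each). Only 1 cluster was endothelium-like, with Cyp1a1 at 1433 CPM against 144 CPM in the next, so this ranking largely restates that cluster. Cyp1b1 lay closest to Treml4 (0.76), Slc22a4 (0.75), Eid3 (0.74), Mmp13 and Depdc7 (0.69 each). For Ahr the nearest were Gch1 (0.82), Dapp1 (0.80), Tnfaip8 (0.78), Itprid2 and Ubash3b (0.77 each), and for Ahrr they were Flrt3 (0.86), Vav3, Mrc1, Pgf (0.85 each) and A530064D06Rik (0.83). Among the members Cyp1b1 and Nqo1 were the most alike (0.67), then Ahrr and Nqo1 (0.66) and Cyp1b1 and Ahrr (0.63). Cyp1a1 and its receptor Ahr reached 0.26, and Ahr and Arnt -0.33.

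Other genes that the receptor induces did not, as a list, share the epithelial difference of Cyp1a1, and most were too low to be judged. Of a list of 16 (phase 2 enzymes, Cyp1a2 and transcriptional responders), 4 passed the filter in epithelium-like cells and 1 was at least 2-fold higher (background 12.1%), the glutathione transferase Gsta1 (6.61 and 60.9 CPM, log2 ratio 2.50); the list's median was 0.20 beside 0.22 for all genes. Within cluster 1, 4 passed and 3 lay above 0. There 0 were at least 2-fold higher and 1 was lower (background 10.8% and 6.99%), and the list's median was 0.44 beside 0.16 for all genes. Cyp1a2, the neighbour of Cyp1a1, had 1 UMI in each library over all cells. In dendritic cell-like cells 5 passed and 1 was higher (background 3.18%), the amino acid transporter subunit Slc7a5 (44.96 and 99.7 CPM, log2 ratio 1.07). In T or NK cell-like, fibroblast-like, macrophage or monocyte-like and smooth muscle-like cells 3, 3, 4 and 3 passed and 0 were past 2-fold.

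Genes of the receptor complex lay close to the median gene at the level of whole classes. Of 10 chaperones, coactivators and partners (among them Hsp90aa1 and Ptges3), 8 passed the filter in fibroblast-like cells and 9 in each other class compared, and 0 were past 2-fold in any of them. List medians ran from 0.03 in T or NK cell-like cells to 0.24 in dendritic cell-like cells, beside 0.13 and 0.20 for all genes. Within epithelial clusters they spread further. In cluster 0, 3 were at least 2-fold higher and 0 lower (background 14% and 10.3%), in cluster 1 none of either (10.8% and 6.99%), and in cluster 9, 4 were higher and 1 lower (17.9% and 10.4%). The chaperone Hsp90aa1, picked after its values were seen, had log2 ratios of 1.79, -0.34 and -1.15 in clusters 0, 1 and 9 and -0.18 in the class. Of 10 enzymes that make or degrade tryptophan-derived ligands, 3 passed the filter in dendritic cell-like cells and 0 elsewhere. Il4i1, an amino acid oxidase that forms such ligands, was at 669 and 804 CPM there.

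Genes of the oxidant response, which NRF2 drives and which include partners of Nqo1, were at higher levels among epithelium-like cells labelled cKO. All 14 of the list passed the filter, 14 lay above 0, 7 were at least 2-fold higher (background 12.1%), and the median log2 ratio was 1.13 beside 0.22 for all genes. The glutathione transferases Gsta4 (23.4 and 196 CPM, log2 ratio 2.82) and Gstm1 (18.4 and 135 CPM, 2.58) and the glutathione synthesis subunit Gclm (115 and 492 CPM, 2.05) led. The excess was smaller within clusters: the list medians in clusters 0, 1 and 9 were 0.43, 0.30 and 0.39, beside all-gene medians of 0.11, 0.16 and 0.24, and without clusters 3 and 8 the count was 5. In the other 5 classes the medians lay between 0.01 and 0.24 and 1 gene was past 2-fold, where 2.08% to 6.28% of all genes were, either way. It was the cystine transporter Slc7a11 in T or NK cell-like cells (68.9 and 29.3 CPM, log2 ratio -1.11, background 1.96% lower).

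Hypoxia response genes, which ARNT drives with a HIF subunit in place of the receptor, went the other way in the same cells. Of 14, all passed in epithelium-like cells, 0 lay above 0, 11 were at least 2-fold lower in the library labelled cKO (background 7.33%), and the median was -1.47. Ankrd37 (231 and 9.65 CPM, log2 ratio -4.01), the HIF prolyl hydroxylase Egln3 (201 and 8.17 CPM, -3.97) and the mitophagy receptor Bnip3 (163 and 6.68 CPM, -3.84) were lowest. Without clusters 3 and 8, which came from the control side alone, the count was 5 and the median -0.92, and within clusters 0, 1 and 9 the medians were -1.07, -0.42 and -1.12 (-0.66 in cluster 9 with the gene at 0 UMIs set to its bound). Bnip3 and Egln3 were also past 2-fold lower in dendritic cell-like (-1.19 and -1.67, with Adm at -1.07; background 3.11%) and in macrophages or monocytes (-1.41 and -1.83; background 2.38%), whereas the lipid droplet protein Hilpda was higher in smooth muscle-like cells (1.14, background 3.22%).

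Enzymes that act on oestrogens beside CYP1A1 and CYP1B1 were mixed. Of 8, 5 passed in epithelium-like cells, and 2 were at least 2-fold higher and 1 lower (background 12.1% and 7.33%). The peroxisomal Hsd17b4 was higher (log2 ratio 1.17). Hsd17b2, which inactivates oestradiol, went from 1558 UMIs (82.4 CPM) to 1 UMI (0.742 CPM), a ratio of 0.00901 (0.000228 to 0.0502). Within clusters 0, 1 and 9 it was at 55.7, 23.4 and 26.7 CPM (120, 57 and 82 UMIs) on the control side and at 0, 1 and 0 UMIs on the other, so most of the 1558 UMIs lay in clusters 3 and 8. None of the 2 or 3 that passed in each other class was past 2-fold, where 2.08% to 6.28% of all genes were, either way.

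**Figure D4:**
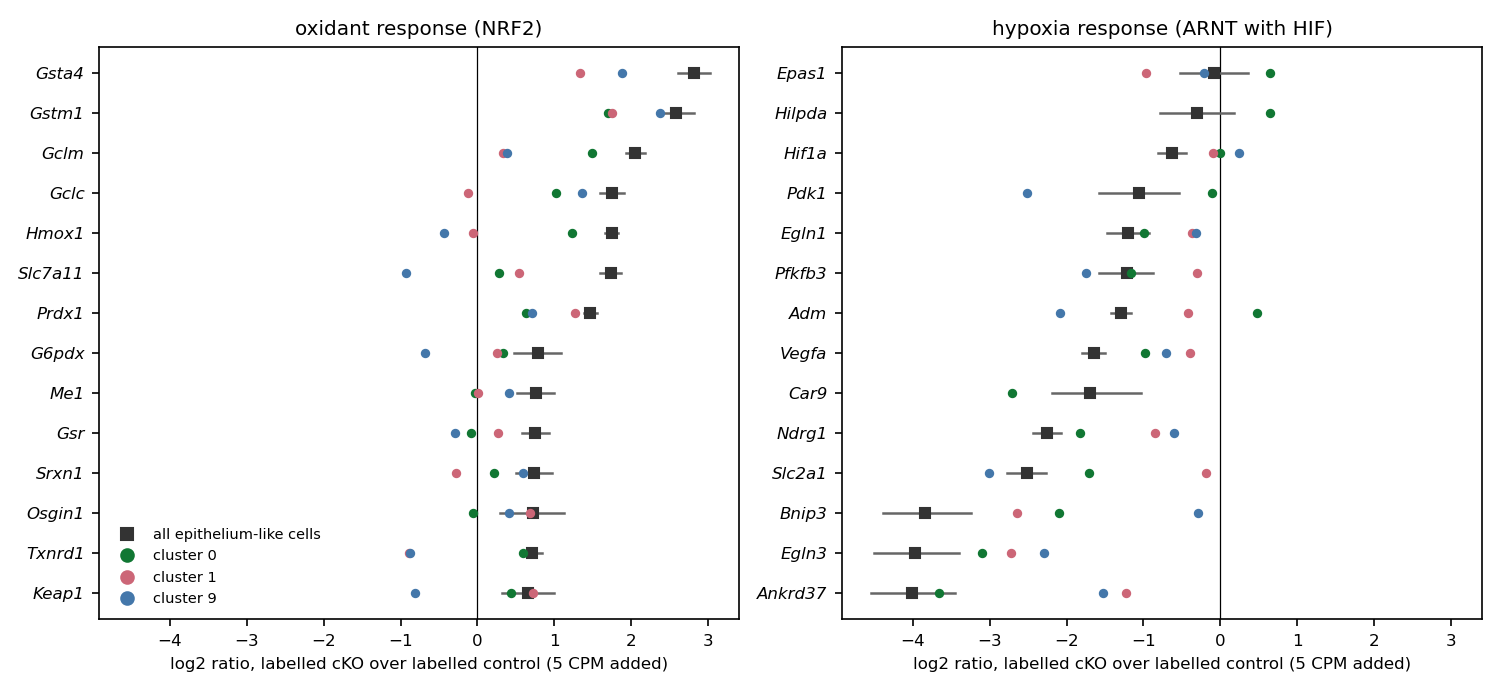
Log2 ratio (cKO label over control label, 5 CPM added) in epithelium-like cells for the genes of the oxidant response and hypoxia response lists; squares with 95% counting intervals are all epithelium-like cells and dots are clusters 0, 1 and 9. All 14 oxidant response squares lie above 0 and all 14 hypoxia response squares below it.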

How the data were processed

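Droplet 3-prime single-cell RNA-seq was made from whole uterus. The authors deposited unfiltered UMI counts per gene and barcode, with no normalization; the file headers name Cell Ranger 4, and the submitters' processing notes name Cell Ranger 6.1.1 and mm10. Counting strand is not given in the sources used here. Of 32285 identifiers, 32158 (99.6%) occur in GENCODE vM21. The members and gene lists were chosen with earlier results of these data known.

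A barcode was taken as a cell from 1000 UMIs and 500 genes upward, with no more than 20% mitochondrial UMIs (45035801 and 34261441 UMIs over all barcodes, 83.4% and 85.7% in cells); 6 barcodes occur in both libraries. Both libraries were clustered jointly in scanpy 1.11.5, with anndata 0.12.19 (Python 3.11.15; counts per 10000, log, 2000 variable genes without members and lists, 30 components, 15 neighbours, Leiden resolution 1.0, igraph 0.11.9). A name needed 3 markers with a UMI in 25% of a cluster's cells and at 2 times the median cluster. Scrublet marked 4 of 7076 cells (0.0565%), so it did not work and doublets remain.

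UMIs were summed per class and library and given as CPM with exact Poisson intervals; shares have exact Clopper-Pearson intervals and ratios exact conditional ones (scipy 1.17.1), which cover counting error only. With 1 library per group there is no test and no p-value. Log2 ratios have 5 CPM added and are therefore compressed at low levels, and a gene was counted when its mean reached 10 CPM and each library had at least 100 cells of the class. Of each list the 3 highest and 3 lowest ratios past 2-fold are named, except that some items are not reported here. Alternatives were the added CPM, scaling, filters, free RNA subtraction, thinning, clustering, Scrublet removal and, added after seeing the data, leaving out the cell with most UMIs of the member. The interval and ratio scripts were tested on simulated data.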

Additional observations from a re-analysis of the deposited data

Results flagged for a closer look

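Members moved in opposite directions in pairs of cell classes, and none of these differences was tested, since each class has 1 library per group. Cyp1b1 had a log2 ratio of 1.06 in dendritic cell-like cells and -1.07 in macrophage or monocyte-like cells. Tiparp stood at 0.88 in T or NK cell-like cells and at -0.69 in epithelium-like cells. Nqo1 stood at 1.68 in epithelium-like cells, where 1 cell held 66 of 122 UMIs, and at -0.39 in macrophage or monocyte-like cells. That pair did not hold under other processing. The epithelial value was -0.14 within cluster 1, -1.72 within cluster 9 and -1.90 after thinning, and cluster 0 was below the filter. The macrophage value reached 0.24 in 1 alternative.

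Droplets with at most 100 UMIs, which were outside every comparison, held more of some members in the library labelled cKO. Cyp1a1 was at 116 CPM there and at 14.7 CPM in the library labelled control. Arnt was at 48.5 and 29.9 CPM, and Tiparp at 343 and 263 CPM.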

How the results depend on the processing

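No paired analysis was possible because each group has 1 library. The count of members past 2-fold (6) ran from 4 to 7 over the alternatives. Of 368 recomputed log2 ratios of members, 310 lay within the counting interval of the reported value. The sign changed in 13, of which 5 lay within that interval. Of ratios past 2-fold, 3 changed sign: Cyp1a1 in dendritic cell-like cells at -0.30 with the highest Scrublet scores removed, and Nqo1 in epithelium-like cells at -1.90 after thinning and -0.57 as the mean within clusters. Of smaller ratios, those that changed sign outside the interval were Ahr in dendritic cell-like cells (-0.06 without cluster 21, which the mean within clusters also leaves out), Nqo1 in macrophage or monocyte-like cells (0.24 at resolution 0.5, 0.22 with no genes left out of the variable genes) and Tiparp in smooth muscle-like cells (-0.06 with median of ratios scaling). Cyp1a1 in epithelium-like cells (4.70) was 5.24 with 1 CPM added, 3.63 with 20 CPM added, 3.31 after thinning, 3.90 without clusters drawn from 1 library and 1.35 as the mean within clusters; at least 2000 UMIs or at most 10% mitochondrial UMIs left fewer than 100 cells and no value. Thinning lowered the share of cells with a Cyp1a1 UMI to 29.7% in the endothelium-like cluster of the library labelled cKO, and to 0.305% and 5.50% in epithelium-like cells. The endothelium-like Cyp1a1 level became 1379 CPM (Scrublet removal), 1194 CPM (thinned) and 1252 CPM (without the highest cell) in the library labelled control, and 1208 CPM (thinned) and 1155 CPM (without the highest cell) in the other. Oxidant response genes past 2-fold in epithelium-like cells numbered 7, and 4 after thinning or 1 as the mean within clusters; hypoxia response genes numbered 11, and 6, 7 or 5 after thinning, as the mean within clusters or without clusters drawn from 1 library. The cause was not tested. Low counts limit Ahrr, and pooling of mice leaves the spread between animals unmeasured.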

Other observations

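In the finer sub-cluster of 70 and 89 cells, which stayed unnamed on its own markers, Ahr was also at a higher level than in the dendritic cell-like sub-cluster of 67 and 136 cells. Ahr was at 171 and 186 CPM against 73.4 and 86.1 CPM. In the sub-cluster of 70 and 89 cells Ahrr was at 13.7 and 29.6 CPM and Tiparp at 696 and 912 CPM.

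In the endothelium-like cluster Tiparp was at 1055 and 1051 CPM in cells with fewer than 2 lymphatic marker UMIs and at 776 and 1193 CPM in the lymphatic-marked cells. Cyp1b1 was at 71.5 and 76.2 CPM in the former and at 67.1 and 7.86 CPM in the latter. Among the lymphatic-marked cells of the control side Cyp1b1 was seen in 2 of 22. There 1 cell of 97293 UMIs held 15 of the 27 Cyp1b1 UMIs and 133 of the 312 Tiparp UMIs. In mast cell-like cells, which had the most Ahr, Nqo1 was at 27.9 CPM (2 UMIs) and 161 CPM (20 UMIs) and Cyp1a1 and Cyp1b1 at 0 UMIs.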
